A study of Mus musculus with 18 samples.

Results

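Mouse Leydig cells in primary culture that carried an siRNA against Prdx1 were compared with and without a pulse of hydrogen peroxide (H2O2). The comparison rests on 6 of the 18 libraries of the study, chosen by their labels: 3 of the group siprdx1+H2O2 and 3 of the group siprdx1. Cells of siprdx1+H2O2 had the Prdx1 siRNA, 200 µM H2O2 for 30 min and then 0.1% DMSO for 6 h, and cells of siprdx1 had the same siRNA and DMSO without H2O2. The groups siNC+H2O2 and siNC (3 libraries each) had the same treatments with a control siRNA in place of the Prdx1 siRNA, and were used to test where the H2O2 response differed between the siRNAs. All 4 groups were transfected with Lipofectamine RNAiMAX and kept at one temperature in one medium, so transfection reagent and DMSO are common to every value below. The remaining 6 libraries also had fluvastatin, and they entered only the estimate of the spread between replicates. Poly(A) RNA was sequenced with a stranded kit. The labels give no mouse strain or age, and they call the replicates biological without saying whether they came from separate animals, so a p-value measures the spread between these cultures only.

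Leydig cells are the testosterone-producing cells between the tubules of the testis, and their mitochondrial steroid synthesis makes them a source of oxidants. Peroxiredoxin 1, the product of Prdx1, is an abundant cytosolic enzyme that reduces H2O2 through a reactive cysteine and can pass the oxidation on to signalling proteins. H2O2 activates MAP kinase cascades, whose best known transcriptional targets are the immediate early genes, and it frees NRF2, the transcription factor that drives antioxidant genes, from its inhibitor KEAP1.

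The 6 libraries held 15201530 to 23898435 counts, and the common coefficient of variation between replicates was 7.01%. Prdx1 (ENSMUSG00000028691, chromosome 4, 116685544 to 116700822, GRCm38) had 576, 485 and 511 CPM (reads of the gene scaled to library size, with TMM factors) in siprdx1+H2O2 and 498, 426 and 468 CPM in siprdx1, against 1689.6, 1648 and 1558 CPM in siNC+H2O2 and 1345, 1358 and 1279 CPM in siNC. Every siprdx1 library was below every siNC library, as the labels say. Near-identical pseudogenes of Prdx1 could share its reads. Among defining Leydig genes, Star had 171, 171 and 177 CPM in siprdx1+H2O2 and 187, 189 and 193 CPM in siprdx1, while Cyp17a1 and Hsd17b3 had 2 and 6 counts in the 6 libraries together. The cultures also held fibroblast, stromal and macrophage transcripts. The tested fibroblast and stromal markers summed to 13999 to 14723 CPM in siprdx1+H2O2 and 11976 to 12486 CPM in siprdx1. The list of steroid synthesis and Leydig identity summed to 2447 to 2519 CPM and 2464 to 2502 CPM. Sums over different genes do not measure numbers of cells. The tested macrophage markers summed to 8661 to 8864 CPM in siprdx1+H2O2 and 8342 to 8579 CPM in siprdx1, and 0 of 17 passed the edgeR test in either direction (1 at an unadjusted p under 0.05, 0 with DESeq2). With offsets for GC content and length in the fit, at least 1 of the 17 rose. In such bulk samples a change in the number of cells of a type and a change in RNA per cell cannot be told apart. siprdx1+H2O2 replicates 1 and 2 stood at opposite ends of an axis linked to GC content. The Spearman correlation of a library's deviation with transcript GC, across genes, was -0.317 and 0.413 for these replicates, and 0.0811 for replicate 3. The siprdx1 libraries had -0.271, 0.281 and -0.19.

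After H2O2, 407 of 16432 tested genes rose (2.48%) and 886 fell (5.39%) in the Prdx1 knockdown cultures (edgeR quasi-likelihood test, Benjamini-Hochberg adjusted p below 0.05). Most changes were small: 30 of the rises and 229 of the falls reached 1 on the log2 scale, and the median of all tested genes was 0.02. Positive values were held by 8978 of the 16432. Where a list below has 0 rises or 0 falls by edgeR, at most 3 of its members moved that way at an unadjusted p under 0.05 and at most 1 did with DESeq2. The 10 largest rises among named genes averaging at least 1 CPM were H4f16, Arc, Fos, Ier2, Btg2, Junb, Egr1, Arl4d, Zfp36 and Fosb, and 8 of these belong to the immediate early class. The 10 largest falls were Tgfbr3l, Olfr1251, Chn1os3, Cep290, Zfp808, Zfp976, Slc7a3, Spaca6, the miRNA gene Mir5125 and the long noncoding RNA Meg3. The count of rises depended on single libraries, with 242 without siprdx1 replicate 1 or replicate 3 and 217 without siprdx1+H2O2 replicate 3, and the split was 234 higher and 1132 lower by library size alone, 99 and 539 when only the 6 libraries were fitted, and 1987 and 1039 with offsets for GC content and length.

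**Figure D1:**
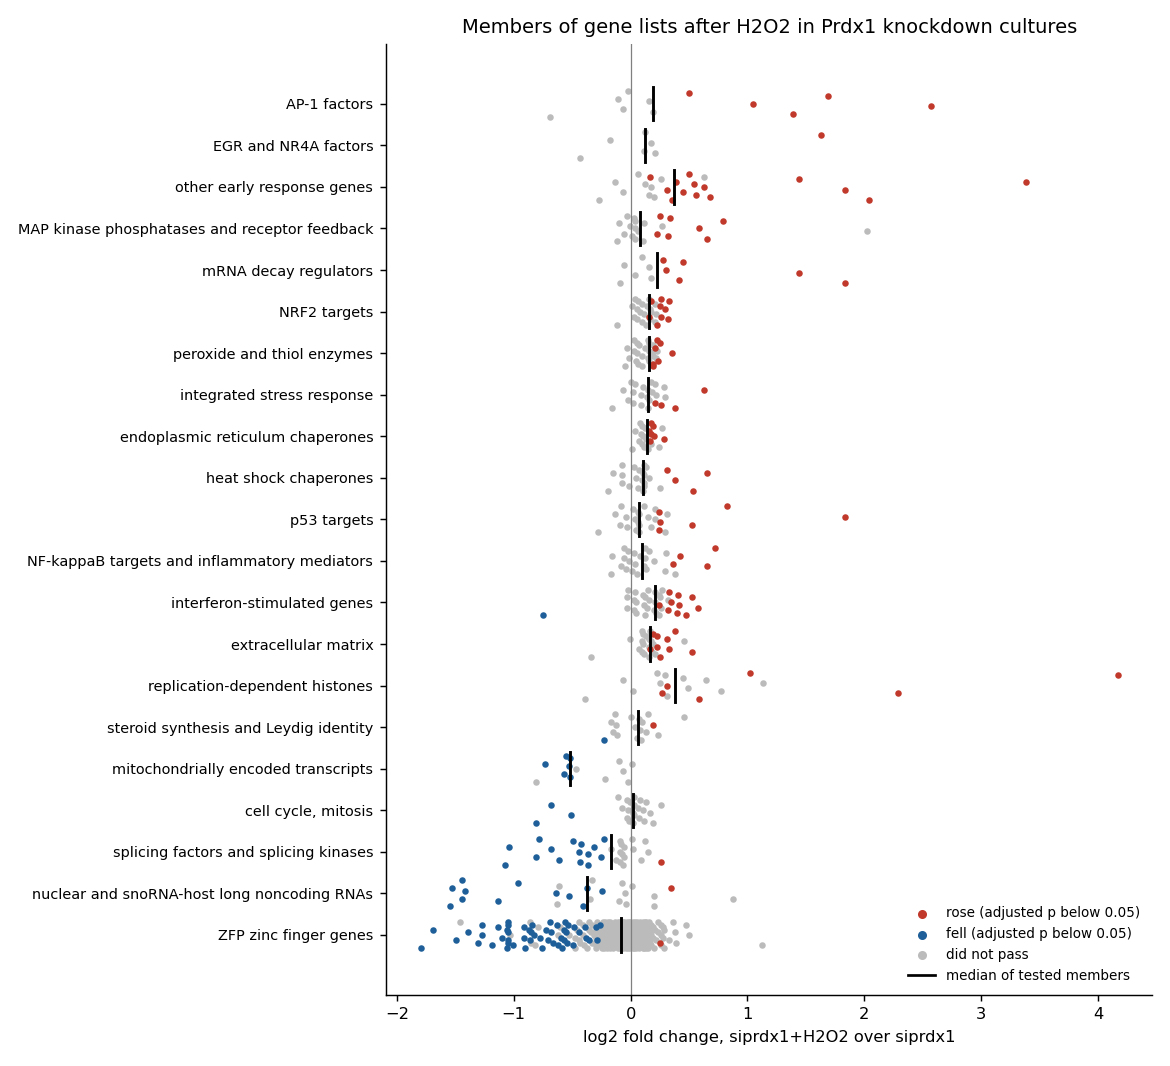
Each point is the log2 fold change of a tested gene, siprdx1+H2O2 over siprdx1, in 21 gene lists (rows); red points rose, blue points fell (edgeR adjusted p below 0.05) and grey points did not pass, and the black bar is the median of the tested members. The early gene lists reach up to Arc at 3.38 and the histone list up to H4f16 at 4.17, while mitochondrially encoded, splicing and long noncoding lists lie mostly left of 0.

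Immediate early genes made up most of the 10 named largest rises. These genes are switched on within minutes of a stimulus without new protein synthesis, and here they were read 6 h after the pulse. The promoter windows of 5 of them are printed as examples of the finding described next: 4 rose less under Prdx1 siRNA than under control siRNA, and for Nr4a1 no rise was detected under Prdx1 siRNA. The 5 were not chosen by a fixed rule. Other genes of that finding with a smaller p than Zfp36, such as Plk2 and Jun, are not printed. The windows hold 250 bases before to 50 after the start that RefSeq gives (GRCm38.p6), 5′ to 3′. The GENCODE spans of Zfp36 and Nr4a1 begin further upstream, so these windows lie inside them. They lie at chr12:85473640-85473939, plus strand (Fos); chr7:19309996-19310295, minus strand (Fosb); chr1:134079106-134079405, minus strand (Btg2); chr7:28379179-28379478, minus strand (Zfp36); and chr15:101266596-101266895, plus strand (Nr4a1). Capitals mark the cAMP response element core TGACG on either strand, where the opposite strand reads CGTCA, and in Zfp36 a CArG box, the binding motif of serum response factor.
Fos: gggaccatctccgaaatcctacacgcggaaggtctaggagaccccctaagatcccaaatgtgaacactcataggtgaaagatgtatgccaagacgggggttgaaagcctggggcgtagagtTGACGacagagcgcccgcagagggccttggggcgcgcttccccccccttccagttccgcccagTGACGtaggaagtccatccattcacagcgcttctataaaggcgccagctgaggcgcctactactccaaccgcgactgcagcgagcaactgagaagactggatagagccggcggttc
Fosb: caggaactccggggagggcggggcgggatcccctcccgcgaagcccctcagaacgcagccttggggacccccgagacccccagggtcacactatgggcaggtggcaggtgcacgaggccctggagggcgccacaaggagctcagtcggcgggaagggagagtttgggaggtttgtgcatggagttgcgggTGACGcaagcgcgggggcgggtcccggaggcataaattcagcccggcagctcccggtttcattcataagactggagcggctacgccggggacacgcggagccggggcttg
Btg2: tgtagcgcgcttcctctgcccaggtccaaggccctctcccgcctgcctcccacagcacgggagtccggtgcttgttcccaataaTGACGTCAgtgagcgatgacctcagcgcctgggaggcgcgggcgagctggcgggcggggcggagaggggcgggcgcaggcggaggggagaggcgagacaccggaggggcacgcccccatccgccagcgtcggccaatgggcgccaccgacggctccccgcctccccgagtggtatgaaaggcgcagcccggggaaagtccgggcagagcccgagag
Zfp36: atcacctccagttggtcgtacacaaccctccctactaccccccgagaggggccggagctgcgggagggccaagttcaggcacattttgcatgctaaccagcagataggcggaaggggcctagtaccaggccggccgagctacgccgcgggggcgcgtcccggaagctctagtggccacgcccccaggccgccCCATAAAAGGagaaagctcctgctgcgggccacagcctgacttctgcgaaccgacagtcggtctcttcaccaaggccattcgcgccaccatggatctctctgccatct
Nr4a1: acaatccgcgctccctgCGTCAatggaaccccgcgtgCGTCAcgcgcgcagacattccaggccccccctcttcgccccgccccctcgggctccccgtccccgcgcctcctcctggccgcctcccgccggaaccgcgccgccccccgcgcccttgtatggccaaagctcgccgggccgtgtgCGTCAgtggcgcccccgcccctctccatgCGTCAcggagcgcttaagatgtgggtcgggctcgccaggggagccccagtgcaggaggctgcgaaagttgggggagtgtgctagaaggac

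The window of Fos held 2 TGACG matches and that of Fosb 1. Btg2 held 2 that overlap as the palindrome TGACGTCA, and Nr4a1 held 4. The AP-1 motif TGANTCA was in 0 of the 5 windows. TGACG occurred in 20.8% of all 32851 promoter windows, the full palindrome TGACGTCA in 1.79%, TGANTCA in 7.81% and a CArG box in 1.63%, each on either strand. Of the 407 genes that rose, 302 were matched to a window by symbol, and 32.4% of their 361 windows held TGACG, against 29.2% of the windows of tested genes. These shares describe letters only.

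Among AP-1 factors, 5 of 11 tested members rose and 0 fell, with a median log2 fold change of 0.19. Some genes stand on more than 1 list, such as Btg2 and Zfp36. Fos (ENSMUSG00000021250, chromosome 12, 85473890 to 85477273) encodes the inducible partner of JUN in the AP-1 dimer. Fos stood at 111, 120.3 and 117 CPM in siprdx1+H2O2 and 17.1, 19.8 and 22 CPM in siprdx1. The groups lay far apart, and the log2 fold change was 2.57 ± 0.07 (SE, n = 3 per group here and below; edgeR adjusted p = 8.34e-17). Fosb, a second FOS family member, had 5.19, 5.86 and 5.99 CPM in siprdx1+H2O2 and 1.86, 2.29 and 2.38 CPM in siprdx1, a rise of 1.39 ± 0.13 at a low level. Junb, a JUN family member that restrains c-Jun, reached 142, 169.5 and 147 CPM in siprdx1+H2O2, against 40.4, 53.9 and 47.4 CPM in siprdx1, and rose by 1.69 ± 0.09. Jun itself had 168, 188 and 191 CPM in siprdx1+H2O2 and 76.6, 99.1 and 88.6 CPM in siprdx1. Its groups did not overlap and the rise was 1.05 ± 0.07.

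Of the EGR and NR4A factors 1 of 7 rose, with a median of 0.12. It was Egr1 (ENSMUSG00000038418, chromosome 18, 34859823 to 34864984), a zinc finger factor of the early response, with 369, 403 and 373 CPM in siprdx1+H2O2 and 117, 129 and 124 CPM in siprdx1, a rise of 1.63 ± 0.06 (edgeR adjusted p = 1.15e-14). Without siprdx1+H2O2 replicate 1 the list counted 2 rises. Nr4a1, an orphan nuclear receptor that in Leydig cells drives steroidogenic genes, had 21.9, 26.4 and 24.4 CPM in siprdx1+H2O2 and 21.2, 23.9 and 22.2 CPM in siprdx1. The groups overlapped, and its value of 0.11 ± 0.08 did not pass (edgeR adjusted p = 0.446).

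Other early response genes rose in number, with 14 of 24 higher, 0 lower and a median of 0.37, beside 0.02 for all tested genes. Arc (ENSMUSG00000022602, chromosome 15, 74669083 to 74672570), best known as a synaptic immediate early gene, was at 19.3, 21.5 and 21.7 CPM in siprdx1+H2O2 and 1.76, 2.24 and 1.94 CPM in siprdx1. Its rise, the largest of the 10 after that of H4f16, was 3.38 ± 0.14 (edgeR adjusted p = 5.66e-14). Ier2, a nuclear protein of the immediate early class, had 86.1, 109.6 and 95.5 CPM in siprdx1+H2O2 and 22.6, 24.2 and 24.1 CPM in siprdx1, a rise of 2.04 ± 0.09. Btg2 (ENSMUSG00000020423, chromosome 1, 134075170 to 134079120), an antiproliferative gene that also promotes mRNA deadenylation, had 147, 149.8 and 156 CPM in siprdx1+H2O2 and 42.5, 42.3 and 42.2 CPM in siprdx1. The groups lay far apart, and the rise was 1.83 ± 0.04 (edgeR adjusted p = 5.61e-18).

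**Figure D2:**
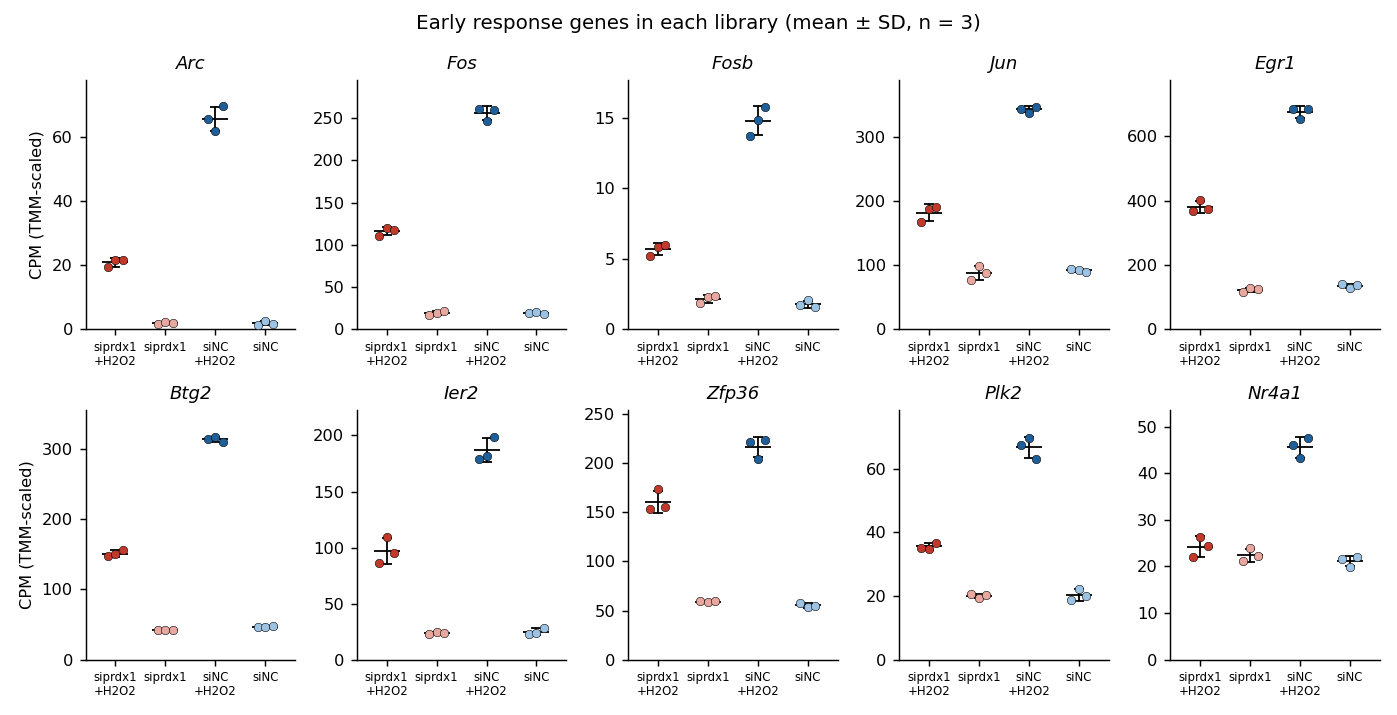
CPM of 10 early response genes in the 12 libraries of 4 groups (x axis), 1 panel per gene with its own y axis from 0; points are libraries, the bar and whiskers the mean ± SD (n = 3). Without H2O2 the siprdx1 and siNC libraries overlap in 8 panels, while in Btg2 siprdx1 is lower and in Zfp36 higher. With H2O2 siNC+H2O2 lies above siprdx1+H2O2 in all 10 panels. The 10 were taken from the genes whose H2O2 effect was lower under Prdx1 siRNA, so this common direction is no separate result. Junb, whose difference did not pass, is not shown.

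In the list of MAP kinase phosphatases and receptor feedback genes 7 of 22 tested members rose and 0 fell (median 0.08). Dusp1, the phosphatase that switches off p38 and JNK, had 311, 357 and 321 CPM in siprdx1+H2O2 and 187, 196 and 188 CPM in siprdx1, a rise of 0.79 ± 0.06. Phlda1 rose by 0.59 ± 0.09, though 33% of its exon bases overlap a gene on the opposite strand, and whether reads were counted by strand is not known here. The growth factor Hbegf and the receptor tyrosine kinase inhibitor Spry2 rose by 0.65 ± 0.12 and 0.34 ± 0.07, and neither passed without siprdx1+H2O2 replicates 1 and 2, when the list count was 4. Among regulators of mRNA decay 6 of 12 rose and 0 fell (median 0.22). Zfp36 (ENSMUSG00000044786, chromosome 7, 28376784 to 28380253), which encodes tristetraprolin and destabilises AU-rich mRNAs of cytokines and of Fos, had 153, 173 and 155 CPM in siprdx1+H2O2 and 59.2, 58.4 and 59.7 CPM in siprdx1, a rise of 1.44 ± 0.06. Tob1, a BTG family adaptor of deadenylases, rose by 0.45 ± 0.08, and Zfp36l1 by 0.41 ± 0.05, with 55.9% of its exon bases overlapped on the opposite strand.

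Several early genes rose less in Prdx1 knockdown cultures than in control cultures, among them Fos, Jun, Egr1, Arc and Btg2. The test of the difference between the 2 H2O2 effects (the interaction, siprdx1 minus siNC) called 40 of 16432 genes, of which 33 had a lower, that is more negative, value (0.201%) and 7 a higher value (0.0426%) under Prdx1 siRNA. At an unadjusted p under 0.05 there were 977 of 16432, where a share of about 0.05 is reached when no gene differs. Of the 33 genes, 17 rose in both arms but less under Prdx1 siRNA, 12 fell under Prdx1 siRNA and 4 passed in siNC only. By list, a lower value passed for 4 of 11 AP-1 factors, 2 of 7 EGR and NR4A factors and 5 of 24 other early response genes. It passed for 1 of 22 phosphatase and feedback genes and 2 of 12 mRNA decay regulators. In siNC these 5 lists counted 6, 3, 18, 7 and 7 rises, in the same order. The differences of Phlda1, Hbegf, Spry2, Zfp36l1 and Tob1 did not pass. With a library left out the lower values numbered 23 to 48 and the higher values 2 to 6. In the siNC arm 1142 genes passed (6.95%, against 7.87% under Prdx1 siRNA), of which 387 rose (2.36%) and 755 fell (4.59%). Without siNC replicate 2, siNC replicate 3, siNC+H2O2 replicate 1 or siNC+H2O2 replicate 3 the siNC counts were 194, 233, 208 and 216 rises and 452, 485, 448 and 437 falls.

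Btg2 had the smallest p. It stood at 147, 149.8 and 156 CPM in siprdx1+H2O2 and 314, 317 and 309 CPM in siNC+H2O2, whereas without H2O2 it stood at 42.5, 42.3 and 42.2 CPM in siprdx1 and 46.5, 46.8 and 47.4 CPM in siNC. The rise was 1.83 ± 0.04 in siprdx1 and 2.74 ± 0.04 in siNC, a difference of -0.91 ± 0.06 (edgeR adjusted p = 1.33e-08). Fos reached 261, 246 and 259.7 CPM in siNC+H2O2, above all siprdx1+H2O2 libraries, and had 19.1, 21 and 18.2 CPM in siNC. Its rises were 2.57 ± 0.07 in siprdx1 and 3.72 ± 0.07 in siNC, a difference of -1.15 ± 0.10 (edgeR adjusted p = 1e-06). Plk2, a polo-like kinase induced by p53 and by stress, had 35.2, 34.9 and 36.7 CPM in siprdx1+H2O2 and 20.6, 19.3 and 20.4 CPM in siprdx1, against 67.5, 69.7 and 63 CPM in siNC+H2O2 and 18.8, 22.3 and 19.9 CPM in siNC. The untreated groups overlapped and the treated groups did not, with a difference of -0.89 ± 0.09. Ppp1r10, a nuclear regulatory subunit of protein phosphatase 1, had 54.3, 64 and 55.8 CPM in siprdx1+H2O2 and 34, 38.6 and 34.6 CPM in siprdx1, against 117, 114 and 113 CPM in siNC+H2O2 and 37.5, 37.7 and 39.1 CPM in siNC, a difference of -0.89 ± 0.09 (edgeR adjusted p = 1.26e-05).

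**Figure D3:**
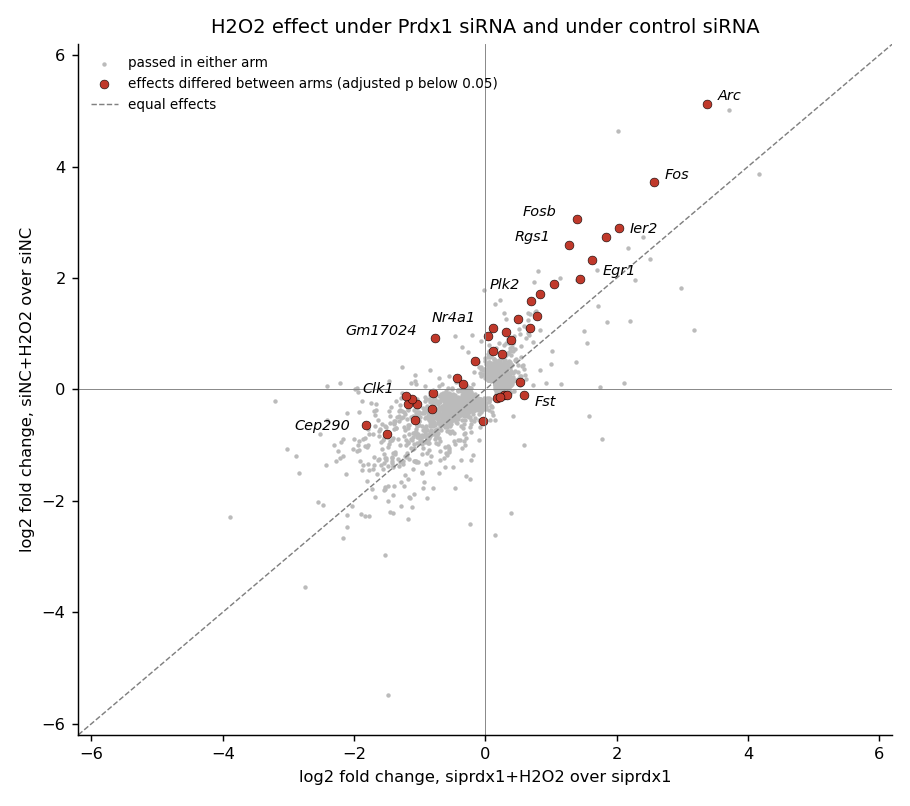
Log2 fold change after H2O2 under Prdx1 siRNA (x axis) and under control siRNA (y axis) for every gene that passed in either arm (grey) and for the 40 genes whose effects differed (red); the dashed line marks equal effects. The red early genes, with Arc at 3.38 and 5.13, lie above the line.

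The remaining genes with a lower value were named after their values were seen. For Nr4a1 the values were 46.1, 43.2 and 47.6 CPM in siNC+H2O2 and 21.6, 19.9 and 22 CPM in siNC, a rise of 1.11 ± 0.08, and the difference of -0.996 ± 0.11 passed (edgeR adjusted p = 1.83e-05). Arc had the largest difference among the 17 genes that rose in both arms, -1.75 ± 0.22, with 19.3, 21.5 and 21.7 CPM in siprdx1+H2O2 and 65.4, 61.7 and 69.4 CPM in siNC+H2O2. Fosb followed at -1.66 ± 0.19, with 5.19, 5.86 and 5.99 CPM in siprdx1+H2O2 and 13.7, 14.9 and 15.7 CPM in siNC+H2O2. For Jun, which had 168, 188 and 191 CPM in siprdx1+H2O2 and 344, 338 and 347 CPM in siNC+H2O2, the difference was -0.85 ± 0.10. The untreated libraries of Jun, Fosb and Arc overlapped between the siRNAs. Egr1 differed by -0.69 ± 0.08, Ier2 by -0.87 ± 0.12 and Zfp36 by -0.53 ± 0.08. Atf3, a stress-induced ATF/CREB factor, had 32.8, 36.4 and 38.3 CPM in siprdx1+H2O2 and 64.6, 55.4 and 64.9 CPM in siNC+H2O2 and differed by -0.75 ± 0.10. The heat shock cochaperone Dnajb1 rose by 0.31 ± 0.06 in siprdx1 and 1.02 ± 0.06 in siNC, a difference of -0.72 ± 0.08. Junb rose by 1.69 ± 0.09 in siprdx1 and 2.14 ± 0.09 in siNC, and its difference of -0.45 ± 0.13 did not pass (edgeR adjusted p = 0.259).

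With the log2 minimum of 1 set aside, which 7 of the 40 differences met, 19 passed in every other setting tried, among them those of Btg2, Fos, Plk2, Ppp1r10, Nr4a1, Jun, Fosb, Egr1, Arc, Atf3, Ier2, Dusp1, Zfp36 and Dnajb1, and 24 passed with any single library left out. The 24 genes of the 33 that were matched to a promoter had 28 windows, of which 11 (39.3%) held TGACG and 3 (10.7%) the palindrome TGACGTCA, against 29.2% and 2.8% of the windows of tested genes. TGANTCA was in 1 (3.57%, against 5.54%) and a CArG box in 1 (3.57%, against 1.29%). The 33 genes include the 12 that fell under Prdx1 siRNA, the windows are few, and these shares were not tested. Most other calls had the same sign in both arms. Of the 407 rises, 376 (92.4%) had a positive value in siNC and 131 (32.2%) also passed there, which is 33.9% of the siNC rises. Of the 886 falls, 853 (96.3%) had a negative value in siNC and 451 (50.9%) passed there, which is 59.7% of the siNC falls. Across all 16432 genes the log2 fold changes of the arms, which share no library, correlated at a Pearson r of 0.524 and a Spearman rho of 0.489. Genes are not independent replicates, and this is a description.

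Of the 7 genes with a higher value under Prdx1 siRNA, 6 rose there and 0 rose in siNC. Scara5, a scavenger receptor for ferritin of stromal cells, had 135, 131 and 137 CPM in siprdx1+H2O2 and 108, 106 and 106 CPM in siprdx1, against 104, 106 and 101 CPM in siNC+H2O2 and 113, 111 and 109 CPM in siNC. It rose by 0.33 ± 0.05 in siprdx1, its value in siNC was -0.10 ± 0.05, and the difference of 0.43 ± 0.07 passed in every setting tried other than the log2 minimum of 1 (edgeR adjusted p = 0.00171). Sparcl1, a secreted glycoprotein of the SPARC family, had 460.2, 471 and 461 CPM in siprdx1+H2O2 and 397, 398 and 403 CPM in siprdx1, against 366, 363 and 357 CPM in siNC+H2O2 and 405, 399 and 391 CPM in siNC, a difference of 0.35 ± 0.06. Thbs2, which encodes the matricellular protein thrombospondin 2, was at 81.9, 87.6 and 82.5 CPM in siprdx1+H2O2 and 58.9, 58.6 and 57.3 CPM in siprdx1, against 97.3, 103 and 95.2 CPM in siNC+H2O2 and 91.8, 85.9 and 90.4 CPM in siNC. Here the untreated siprdx1 libraries were the low group, and the difference of 0.39 ± 0.07 did not pass without siNC+H2O2 replicate 3 or without siprdx1+H2O2 replicates 1 and 2. Abat, the GABA transaminase, differed by 0.33 ± 0.06, which did not pass in 8 of 12 fits that left out a library.

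In the extracellular matrix list 9 of 28 tested members rose under Prdx1 siRNA, 0 fell and the median was 0.17, while in siNC 0 rose, 0 fell and the median was 0.02. Of these 28 genes the difference between arms passed for Thbs2. Col3a1, the fibrillar collagen of soft tissue, had 5411, 5794 and 5679 CPM in siprdx1+H2O2 and 4401, 4693 and 4535 CPM in siprdx1, against 6659, 6551 and 6420.3 CPM in siNC+H2O2 and 6272, 6285 and 5911 CPM in siNC. It rose by 0.31 ± 0.05 in siprdx1 and stayed lower there than in either siNC group. Eln, which encodes elastin, rose by 0.38 ± 0.06 and Lox, the enzyme that crosslinks collagen and elastin, by 0.33 ± 0.07; their differences from siNC were 0.28 ± 0.09 and 0.34 ± 0.09 and did not pass (edgeR adjusted p = 0.38 and 0.206). Fibroblast and stromal markers moved in the same direction: 3 of 10 tested members rose, Dpt by 0.38 ± 0.08 and Col3a1 and Dcn, which are also on the matrix list, and their sum was 13999 to 14723 CPM in siprdx1+H2O2 and 11976 to 12486 CPM in siprdx1. The part of this cell type in the matrix result was not tested. The matrix count was 4 without siprdx1 replicate 3 and 4 without siprdx1+H2O2 replicates 1 and 2, and it was 21 with GC and length offsets.

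Rises among antioxidant genes were small. Of 29 tested NRF2 targets 9 rose and 0 fell, 28 had positive values, and the median was 0.16. Of all 16432 tested genes 8978 had positive values. Hmox1, heme oxygenase 1, had 714, 808 and 777 CPM in siprdx1+H2O2 and 606, 664 and 653 CPM in siprdx1, groups that did not overlap, and rose by 0.26 ± 0.05 (edgeR adjusted p = 0.00195). Srxn1, the sulfiredoxin that restores overoxidised peroxiredoxins, had 243, 223 and 234 CPM in siprdx1+H2O2 and 207, 197 and 193 CPM in siprdx1, a rise of 0.23 ± 0.05, beside 0.35 ± 0.05 in siNC. Gclm, the modifier subunit of glutamate-cysteine ligase in glutathione synthesis, rose by 0.32 ± 0.07, and Gsr, glutathione reductase, by 0.26 ± 0.06. Nqo1, a quinone reductase and a classical NRF2 target, had 34.4, 31.5 and 30.8 CPM in siprdx1+H2O2 and 28.7, 25.3 and 24.9 CPM in siprdx1; its rise of 0.29 ± 0.07 did not pass without siprdx1 replicate 2, siprdx1 replicate 3 or siprdx1+H2O2 replicate 1. The list counted 5 rises without siprdx1 replicate 3 or siprdx1+H2O2 replicate 3, 0 when only the 6 libraries were fitted and 19 with GC and length offsets.

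Prdx1 itself had a value of 0.17 ± 0.06 under its siRNA (edgeR adjusted p = 0.0932), which did not pass, and rose by 0.30 ± 0.06 in siNC. It passed without siprdx1 replicate 1, without siprdx1+H2O2 replicate 2, with no low-count filter, with the replicate block and with GC and length offsets with or without the block. The difference between the arms, -0.12 ± 0.09, did not pass (edgeR adjusted p = 0.997). Of 30 other peroxide and thiol enzymes 7 rose, 0 fell and 27 had positive values, with a median of 0.15, beside 8978 positive values among all 16432 tested genes. Prdx6, the 1-cysteine peroxiredoxin, had 148, 136 and 149 CPM in siprdx1+H2O2 and 128, 119 and 116 CPM in siprdx1 and rose by 0.25 ± 0.05, beside 0.25 ± 0.05 in siNC, with a near-identical copy that could share reads. Cat, catalase, rose by 0.19 ± 0.04, and Gpx7, a glutathione peroxidase of the endoplasmic reticulum, by 0.35 ± 0.08. Txnip, the inhibitor of thioredoxin, had 1833, 1727 and 1815 CPM in siprdx1+H2O2 and 1542, 1455 and 1560.1 CPM in siprdx1 and rose by 0.24 ± 0.05; a gene on the opposite strand overlaps 19.4% of its exon bases. The count was 4 without siprdx1 replicate 1 and 2 without siprdx1+H2O2 replicates 1 and 2, where Cat and Gpx7 did not pass.

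In the integrated stress response, in which phosphorylated eIF2α slows translation and raises ATF4, 4 of 24 rose and 0 fell (median 0.15). In siNC 10 rose (median 0.22), and the difference between arms passed for 0 of the 24. Atf4 had 299.6, 321 and 301 CPM in siprdx1+H2O2 and 228, 244 and 234 CPM in siprdx1 and rose by 0.38 ± 0.05. Ppp1r15a, which encodes GADD34, the eIF2α phosphatase subunit, had 55.1, 66.7 and 61.9 CPM in siprdx1+H2O2 and 37.5, 43.6 and 37.7 CPM in siprdx1 and rose by 0.63 ± 0.07. The count was 2 without siprdx1 replicate 2 or siprdx1+H2O2 replicate 3. All 22 endoplasmic reticulum chaperone genes tested had positive values, beside 8978 of all 16432 tested genes, and 7 of the 22 rose (median 0.14). These included the disulfide isomerase Pdia4 by 0.19 ± 0.04 and the secreted factor Manf by 0.29 ± 0.07, which did not pass without siprdx1+H2O2 replicate 3. The chaperone count was 4 without siprdx1 replicate 1 or 3, 3 without siprdx1 replicate 2 and 2 without siprdx1+H2O2 replicate 3.

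Of 24 heat shock genes 4 rose and 0 fell (median 0.11). Hspa1a and Hspa1b, the stress-inducible HSP70 genes, rose by 0.66 ± 0.09 and 0.54 ± 0.10, and because they are 99.2% identical the counting could split reads between them; 19% of the exon bases of Hspa1a also overlap a gene on the opposite strand. Hspb1, a small heat shock protein with a near-identical copy, had 30.6, 34.3 and 32.4 CPM in siprdx1+H2O2 and 24.9, 24.1 and 25.9 CPM in siprdx1 and rose by 0.38 ± 0.08. Dnajb1 was at 47.9, 46.8 and 43.5 CPM in siprdx1+H2O2 and 36.4, 38.6 and 36.4 CPM in siprdx1. In siNC+H2O2 it was at 75.2, 75.5 and 77.5 CPM. Its rise under Prdx1 siRNA did not pass without siprdx1+H2O2 replicates 1 and 2, at 0.23.

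Among p53 targets 6 of 27 rose and 0 fell (median 0.08), Btg2 and Plk2 first. Cdkn1a, the p21 cell cycle inhibitor, had 113, 125 and 118 CPM in siprdx1+H2O2 and 103, 100.2 and 97 CPM in siprdx1 and rose by 0.24 ± 0.06, and the stress cytokine Gdf15 rose by 0.53 ± 0.13. Cdkn1a did not pass without siprdx1+H2O2 replicate 3, and Gdf15 did not without siprdx1 replicate 1. Neither passed without siprdx1 replicate 3, when the count was 2, nor without siprdx1+H2O2 replicate 2, when it was also 2, and it was 3 without siprdx1 replicate 1. Of the 27 BCL2 family and caspase genes 0 passed in either direction by edgeR or DESeq2 (1 higher at an unadjusted p under 0.05), and 5 rose with GC and length offsets.

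For inflammatory genes the difference between arms passed for Ccl3 and Ccl7. Of 26 NF-kappaB targets and inflammatory mediators 4 rose under Prdx1 siRNA and 0 fell (median 0.10), against 11 that rose in siNC. The cytokine gene Tnf averaged 20.05 ± 1.62 CPM in siprdx1+H2O2 and 12.1 ± 0.535 CPM in siprdx1 (SD, n = 3), groups that did not overlap, and rose by 0.72 ± 0.08, beside 0.85 ± 0.08 in siNC. Cxcl1, a neutrophil chemokine, had 7.08, 8.39 and 7.62 CPM in siprdx1+H2O2 and 4.29, 5.25 and 5.13 CPM in siprdx1 and rose by 0.66 ± 0.13. The macrophage chemokine Ccl3 had 30.6, 31.2 and 30.3 CPM in siprdx1+H2O2 and 29.4, 27 and 28.5 CPM in siprdx1, against 44.9, 49.4 and 43.1 CPM in siNC+H2O2 and 28.9, 28.7 and 27.3 CPM in siNC. Its value under Prdx1 siRNA, 0.12 ± 0.07, did not pass and the difference of -0.57 ± 0.10 did (edgeR adjusted p = 0.00653); Ccl7, a monocyte chemokine, differed by -0.67 ± 0.13, and did not pass in 5 of 12 fits that left out a library. The sum of macrophage markers was 8661 to 8864 CPM in siprdx1+H2O2 and 8342 to 8579 CPM in siprdx1. It was 9814 to 10504 CPM in siNC+H2O2 and 8531 to 9456 CPM in siNC. Their median log2 fold change was 0.02 in siprdx1, where 0 of 17 passed by edgeR without GC and length offsets, beside 0.02 for all tested genes. In siNC it was 0.15 and 2 of 17 rose. The difference between arms passed for 0 of the 17 markers. The part of macrophages in the differences of Ccl3 and Ccl7 was not tested. Of the 26 inflammatory genes the count of rises under Prdx1 siRNA was 2 without siprdx1 replicate 1 or siprdx1+H2O2 replicate 3.

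Interferon-stimulated genes, an antiviral program, rose in 10 of 36 tested members and fell in 1 (median 0.21). Irf7, the amplifying factor of the type I response, had 69.1, 74.2 and 72.8 CPM in siprdx1+H2O2 and 52.5, 56.3 and 53.4 CPM in siprdx1 and rose by 0.41 ± 0.05. Ifit1, which binds uncapped viral RNA, rose by 0.53 ± 0.09. Oas2, an RNA sensor that activates RNase L, went the other way, with 15.8, 15.5 and 14.3 CPM in siprdx1+H2O2 and 25.1, 27.3 and 24.2 CPM in siprdx1, and fell by 0.75 ± 0.08 on the log2 scale. It fell in siNC too (-0.73 ± 0.09). Cxcl10, an interferon-induced chemokine, had 7.68, 7.06 and 8.11 CPM in siprdx1+H2O2 and 7.65, 7.24 and 7.32 CPM in siprdx1, against 6.86, 6.5 and 6.51 CPM in siNC+H2O2 and 2.92, 3.89 and 3.42 CPM in siNC. Without H2O2 every siprdx1 library was above every siNC library, and the difference of -0.91 ± 0.19 did not pass in 11 of 12 fits that left out a library. The list counted 6 rises without siprdx1 replicate 3 and 4 without siprdx1+H2O2 replicates 1 and 2.

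The falls were richer in noncoding transcripts than the tested genes as a whole. Of the 886 genes that fell 132 (14.9%) were long noncoding RNAs and 70 (7.9%) were TEC loci, annotated transcribed regions that still await experimental evidence, against 7.65% and 2.08% of all tested genes. Of the 229 that fell by at least 1 on the log2 scale, 73 (31.9%) were long noncoding, 54 (23.6%) TEC and 84 (36.7%) protein coding. Read the other way, 10.5% of tested long noncoding RNAs and 20.5% of TEC loci fell, against 4.77% of protein coding genes. Long noncoding RNAs, for these shares with TEC loci counted in, took 0.697%, 0.678% and 0.674% of all counts in siprdx1+H2O2 and 0.964%, 0.934% and 0.955% in siprdx1. The groups did not overlap, with means of 0.683% ± 0.0124 and 0.951% ± 0.0153 (SD, n = 3; exact two-sided permutation test p = 0.1, the smallest that 3 against 3 libraries allow). In siNC+H2O2 and siNC the means were 0.713% ± 0.0114 and 0.919% ± 0.0343.

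**Figure D4:**
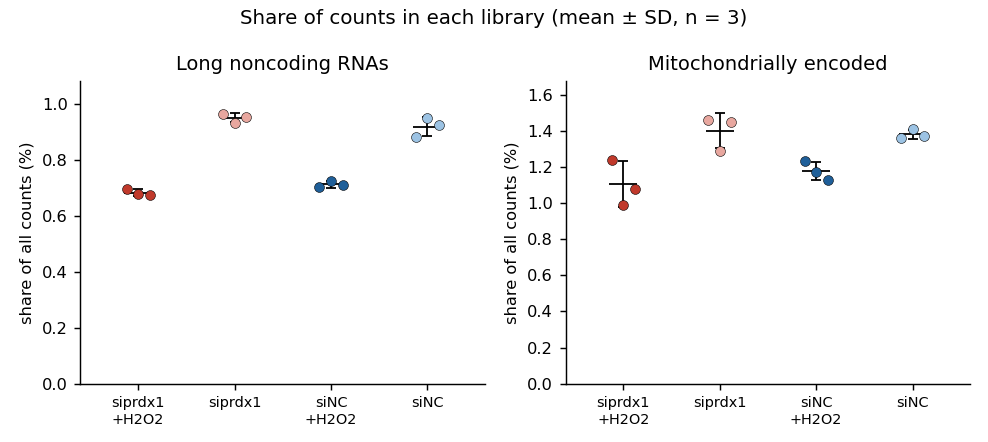
Share of all counts (y axis, percent, from 0) taken by long noncoding RNAs, with TEC loci counted in, and by all mitochondrially encoded transcripts, with ribosomal and transfer RNAs counted in, in the libraries of 4 groups. Points are libraries, bar and whiskers the mean ± SD (n = 3). In both siRNA arms the H2O2 libraries lie below the untreated ones, for long noncoding RNAs at 0.674% to 0.697% against 0.934% to 0.964% under Prdx1 siRNA.

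In the list of nuclear and snoRNA-host long noncoding RNAs 12 of 25 tested members fell and 1 rose, with a median of -0.37. Malat1, an abundant RNA of nuclear speckles, had 530.3, 632 and 505 CPM in siprdx1+H2O2 and 1436, 1585 and 1440.0 CPM in siprdx1 and fell by 1.42 ± 0.11 on the log2 scale (edgeR adjusted p = 5.16e-08). Neat1, the scaffold of paraspeckles, had 362, 347 and 329.6 CPM in siprdx1+H2O2 and 800.4, 739 and 745 CPM in siprdx1, far apart, a change of -1.14 ± 0.06. Meg3 (ENSMUSG00000021268, chromosome 12, 109541001 to 109571726), a maternally expressed imprinted RNA, had 53.3, 56.3 and 54.5 CPM in siprdx1+H2O2 and 156, 168 and 156 CPM in siprdx1, a change of -1.55 ± 0.06. Snhg11, a host of small nucleolar RNAs, had 16.1, 11.7 and 11.6 CPM in siprdx1+H2O2 and 37.8, 34.9 and 34 CPM in siprdx1, a change of -1.45 ± 0.12. In siNC the changes were -0.91 ± 0.11 for Malat1, -1.05 ± 0.06 for Neat1, -1.33 ± 0.06 for Meg3 and -0.93 ± 0.12 for Snhg11, and none of these differences between arms passed.

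Splicing factors and their kinases fell in 15 of 31 tested members and rose in 1, with a median of -0.17. Luc7l3, a U1-associated splicing factor, had 68, 55.8 and 60.1 CPM in siprdx1+H2O2 and 133, 116 and 138 CPM in siprdx1, a change of -1.07 ± 0.07 (edgeR adjusted p = 8.8e-10). Clk1, a kinase that phosphorylates SR proteins, had 98.8, 73.4 and 83.2 CPM in siprdx1+H2O2 and 187, 159 and 180.3 CPM in siprdx1, against 132, 149 and 125 CPM in siNC+H2O2 and 157, 175 and 152 CPM in siNC. It fell by 1.04 ± 0.09 under Prdx1 siRNA, its siNC value was -0.26 ± 0.09, and the difference of -0.79 ± 0.13 passed in every setting tried other than the log2 minimum of 1 (edgeR adjusted p = 0.00644). The SR protein gene Srsf5 had 380.2, 322 and 361 CPM in siprdx1+H2O2 and 637, 566 and 659.8 CPM in siprdx1, a change of -0.81 ± 0.06, with a near-identical copy that could take reads. For Luc7l3 and Srsf5 the differences from siNC, -0.53 ± 0.10 and -0.46 ± 0.09, did not pass in 9 and 8 of the 12 fits that left out a library.

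**Figure D5:**
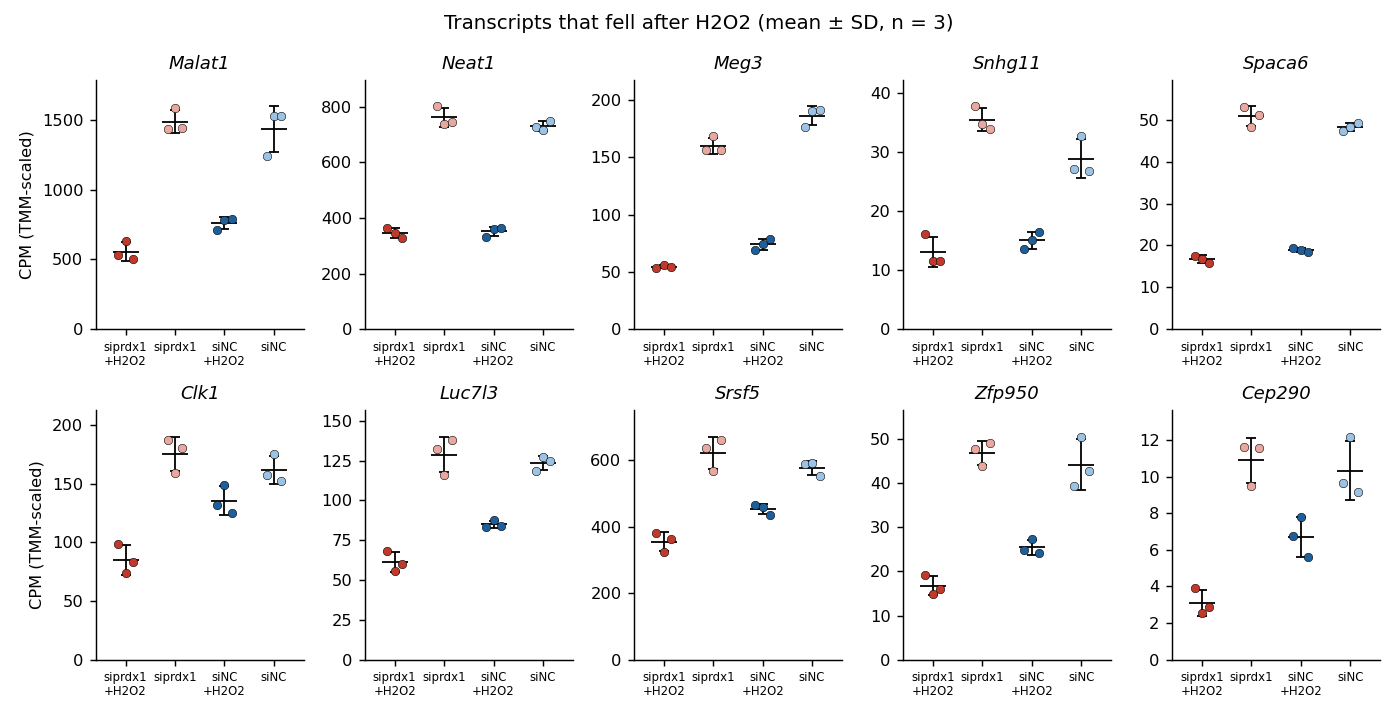
CPM of 10 transcripts that fell after H2O2 under Prdx1 siRNA, in the 12 libraries of 4 groups (x axis), 1 panel per gene with its own y axis from 0; points are libraries, bar and whiskers the mean ± SD (n = 3). In every panel the siprdx1+H2O2 libraries lie below the siprdx1 libraries, for Malat1 at 530.3, 632 and 505 against 1436, 1585 and 1440.0 CPM.

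Genes of the ZFP zinc finger family, many of them KRAB repressors of transposons, fell in 52 of 328 tested members and rose in 1, with a median of -0.08. In siNC 23 fell, and the difference between arms passed for 1 of the 328. Zfp950 had 19.2, 15 and 16 CPM in siprdx1+H2O2 and 47.7, 44 and 49.2 CPM in siprdx1, a change of -1.49 ± 0.10, beside -0.80 ± 0.10 in siNC, and the difference of -0.70 ± 0.14 did not pass in 9 of 12 fits that left out a library. Zfp948 had 8.33, 6.15 and 6.88 CPM in siprdx1+H2O2 and 15.4, 13.3 and 15.3 CPM in siprdx1, a change of -1.05 ± 0.14, and Zfp994 changed by -1.30 ± 0.17. Zfp970, Zfp976 and Zfp808 also fell, with values of -1.10 ± 0.12, -1.69 ± 0.26 and -1.80 ± 0.27, and like Zfp950 and Zfp994 they have near-identical relatives that could share reads. Without siprdx1+H2O2 replicates 1 and 2 the count that fell was 33.

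The other large falls were of mixed kinds. Spaca6 (ENSMUSG00000080316, chromosome 17, 17827158 to 17843009), a sperm membrane gene needed for fertilisation, had 17.6, 16.9 and 15.9 CPM in siprdx1+H2O2 and 53, 48.2 and 51 CPM in siprdx1, a change of -1.60 ± 0.07 (edgeR adjusted p = 2.55e-13), and -1.36 ± 0.07 in siNC. Cep290, a ciliary transition zone gene, had 3.89, 2.53 and 2.89 CPM in siprdx1+H2O2 and 11.6, 9.48 and 11.6 CPM in siprdx1, a change of -1.82 ± 0.18, against -0.63 ± 0.17 in siNC, and the difference of -1.19 ± 0.25 passed (edgeR adjusted p = 0.0434) but did not in 8 of the 12 fits that left out a library, with the replicate block (edgeR adjusted p = 0.0629) or with limma voom. The remaining named falls were low in level. Tgfbr3l, with 0.249, 0.706 and 0.489 CPM in siprdx1+H2O2 and 1.96, 1.82 and 2.19 CPM in siprdx1, changed by -1.996 ± 0.39 and shares exon bases with a neighbour on the same strand. The amino acid transporter gene Slc7a3 had 0.599, 0.623 and 0.326 CPM in siprdx1+H2O2 and 1.55, 1.69 and 1.5 CPM in siprdx1 and changed by -1.62 ± 0.30. The antisense RNA Chn1os3 changed by -1.86 ± 0.32, the Mir5125 locus by -1.56 ± 0.23 and the odorant receptor gene Olfr1251, which has near-identical copies, by -1.95 ± 0.27.

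Genes that fell and genes that rose also differed in GC content, length and level. The median transcript GC content was 46.1% for genes that fell, 50.1% for those that rose and 49.5% for all tested genes, and the median length was 3887, 2399 and 3055 nt. Genes that fell had a median of 15.6 CPM and those that rose 67.9 CPM, against 18.2 CPM for all. Among changes of at least 1 on the log2 scale the medians for falls and rises were 43.8% and 51.5% GC, 2613 and 2691 nt, and 1.47 and 1.19 CPM, so length and level there ran in the opposite order. With offsets for GC content and length the rises numbered 1987 and the falls 1039, in place of 407 and 886, and how far these properties enter single genes was not tested.

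Mitochondrially encoded transcripts of protein genes fell in 6 of 13 tested members and rose in 0, with a median of -0.52, beside 5 that fell in siNC. The complex I subunit gene mt-Nd5 had 1044, 785 and 831 CPM in siprdx1+H2O2 and 1527, 1370.2 and 1522 CPM in siprdx1, a change of -0.73 ± 0.08 (edgeR adjusted p = 4.05e-06). The cytochrome b gene mt-Cytb had 1549, 1301 and 1334 CPM in siprdx1+H2O2 and 2161, 1979 and 2066 CPM in siprdx1, a change of -0.57 ± 0.07, and mt-Nd1, another complex I gene, changed by -0.53 ± 0.06. Nuclear copies of mitochondrial sequence could share reads of mt-Nd5 and mt-Cytb. Of the 4 tested mitochondrial ribosomal and transfer RNAs, which are not on this list, 1 rose, 0 fell and the median was 0.15. That rise reached 1 on the log2 scale. The whole mitochondrial genome, with these RNAs counted in, took 1.24%, 0.988% and 1.08% of counts in siprdx1+H2O2. In siprdx1 it took 1.46%, 1.29% and 1.45%. The groups did not overlap (exact two-sided permutation test p = 0.1, the smallest possible). Of 36 nuclear-encoded respiratory chain genes 34 had positive values, beside 8978 of all 16432 tested genes. Of the 36, 2 rose (5.56%, against 2.48% of all tested genes), and neither passed in 5 of the 6 fits that left out a library.

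Replication-dependent histone genes, whose mRNAs normally lack poly(A) tails, rose in 6 of 18 tested members and fell in 0 (median 0.38). H4f16 had 2.34, 1.41 and 2.97 CPM in siprdx1+H2O2 and 0.103, 0.0846 and 0.188 CPM in siprdx1, barely detected without H2O2, and H4c9 rose by 1.02 ± 0.21; both are histone H4 genes whose near-identical copies make their values uncertain. H1f2, a linker histone gene, had 105, 115 and 109 CPM in siprdx1+H2O2 and 86.5, 89.2 and 89.8 CPM in siprdx1 and rose by 0.31 ± 0.05, and H2bc21 rose by 0.59 ± 0.11, which did not pass without siprdx1+H2O2 replicates 1 and 2. Of 24 genes of mitosis 3 fell (12.5%, against 5.39% of all tested genes) and 0 rose. Positive values were held by 14 of the 24, of which 3 had an unadjusted p under 0.05. The median was 0.02, the same as for all tested genes. Mki67, the proliferation marker Ki-67, had 90.2, 90.6 and 90.8 CPM in siprdx1+H2O2 and 124, 131 and 131 CPM in siprdx1 and fell by 0.51 ± 0.06 on the log2 scale. The kinetochore genes Cenpf and Cenpe changed by -0.81 ± 0.12 and -0.68 ± 0.11. Sequence shared with other genes could add reads to all 3. In siNC these changes were -0.24 ± 0.06, -0.27 ± 0.12 and -0.17 ± 0.10, and the differences between arms did not pass.

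Among 18 tested genes of steroid synthesis and Leydig identity 1 rose and 1 fell (median 0.06). Star (ENSMUSG00000031574, chromosome 8, 25806555 to 25815982), which carries cholesterol into mitochondria, had a value of -0.13 ± 0.05 (edgeR adjusted p = 0.134) and did not pass, although its groups did not overlap. Star passed with GC and length offsets and the replicate block together. Cyp11a1, which cleaves the cholesterol side chain, had 619, 628 and 625 CPM in siprdx1+H2O2 and 686, 656 and 684 CPM in siprdx1, a value of -0.11 ± 0.04 (edgeR adjusted p = 0.126) that did not pass here. Cyp11a1 passed with DESeq2, with library size alone and with GC and length offsets with or without the replicate block. Non-overlap in the lower direction occurred for 12.1% of all tested genes and in the higher direction for 10.5%. Scarb1, the receptor for high density lipoprotein, fell by 0.23 ± 0.06 and Cyb5a, a cytochrome b5 that aids CYP17A1, rose by 0.19 ± 0.05. Neither passed without siprdx1+H2O2 replicate 3, and Scarb1 did not without siprdx1 replicate 2 or siprdx1+H2O2 replicate 1.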

How the data were processed

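Poly(A) RNA of 18 cultures in 6 groups was sequenced. The authors deposited raw read counts for 55487 genes. HISAT2, HTSeq and mm10 are named without versions in the submitters' processing notes, and the strand setting and annotation release are not given in the sources used here. All else was computed from these counts: CPM with TMM scaling, and edgeR 4.0.16 (R 4.3.3) quasi-likelihood tests of 6 group means over 18 libraries after filterByExpr, at a Benjamini-Hochberg adjusted p below 0.05. Coordinates come from GENCODE on GRCm38, in which 55227 IDs were found. Near-identical genes were sought with blastn 2.17.0+ at 90% identity over 100 bp. Genes named by size passed, averaged at least 1 CPM and did not overlap: 10 per direction, 4 per direction for the interaction by p, and up to 4 per list, with a fixed set including Prdx1; some genes that met these rules are not reported here. The comparison, lists and members were chosen with earlier results of these data known. Replicate numbers did not pair the siprdx1 libraries (correlations 0.178, 0.256 and -0.00634) and by the rule of 0.1 in every pair did so in siNC (0.135, 0.135 and 0.118), which rests on the data and not on the labels. Replicate pairs differed by 2.74 to 17.1 times counting noise. The steps were tested on simulated data. Alternatives were RLE factors, library size alone, no filter, the replicate block, only the groups compared, GC and length offsets, limma voom (limma 3.58.1), DESeq2 1.42.0, a log2 minimum of 1, single libraries left out and, chosen after seeing the data, siprdx1+H2O2 replicates 1 and 2 left out.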

Additional observations from a re-analysis of the deposited data

Results flagged for a closer look

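The H2O2 effect differed between the siRNA arms, by the test of the difference itself, for 33 genes with a lower (more negative) and 7 with a higher value under Prdx1 siRNA than under control siRNA. Differences are given as log2 values, siprdx1 minus siNC. Among genes that rose in both arms they were -0.91 for Btg2, -1.15 for Fos, -0.89 for Plk2, -0.89 for Ppp1r10, -0.72 for Dnajb1, -0.85 for Jun, -1.66 for Fosb, -0.69 for Egr1 and -1.75 for Arc. Further such genes were Atf3 at -0.75, Ier2 at -0.87, the G protein regulator Rgs1 at -1.33, Dusp1 at -0.53, Zfp36 at -0.53, Ier5 at -0.42, the small GTPase gene Rhob at -0.51 and the bromodomain gene Brd2 at -0.38. Rgs1 had 20.7, 14.4 and 19 CPM in siprdx1+H2O2 and 7.86, 6.81 and 7.82 CPM in siprdx1, against 46, 49.1 and 39.8 CPM in siNC+H2O2 and 7.66, 8.34 and 6.24 CPM in siNC. Genes that passed in siNC and not under Prdx1 siRNA were Nr4a1 at -0.996, Ccl3 at -0.57, Ccl7 at -0.67 and Cxcl10 at -0.91.

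Genes that fell under Prdx1 siRNA had differences of -0.79 for Clk1, -0.53 for Luc7l3, -0.46 for Srsf5, -1.19 for Cep290, -0.70 for Zfp950 and -0.93 for the nucleosome-binding gene Hmgn5, which has near-identical copies. The myeloid receptor genes Lilrb4a and Lilr4b, which are near-identical to each other, differed by -0.94 and -0.74. Lilrb4a had 37.1, 28.2 and 31.7 CPM in siprdx1+H2O2 and 80.4, 62 and 67.5 CPM in siprdx1, against 59.8, 65.3 and 59.2 CPM in siNC+H2O2 and 65.7, 75.7 and 66.9 CPM in siNC. Of the 17 macrophage markers 0 passed after H2O2 under Prdx1 siRNA by edgeR or DESeq2 (1 at an unadjusted p under 0.05). At least 1 marker rose with GC and length offsets, and at least 1 fell with offsets and replicate block. The part of macrophages in the differences of Lilrb4a and Lilr4b was not tested. The glycoprotein hormone gene Stc1 differed by -0.43, Arid5a by -0.63, Sh2d6 by -1.09 and the predicted gene Gm17024 by -1.69. Sh2d6 had 3.79, 3.07 and 3.67 CPM in siprdx1+H2O2 and 8.27, 7.91 and 8.07 CPM in siprdx1, against 2.47, 2.64 and 2.42 CPM in siNC+H2O2 and 3.06, 2.23 and 2.87 CPM in siNC. Differences in the other direction included 0.43 for Scara5, 0.35 for Sparcl1, 0.39 for Thbs2, 0.33 for Abat, 0.53 for Tmem44 and 0.69 for the activin inhibitor Fst. With a library left out, 16 of the 40 differences did not pass in at least 1 of 12 fits. Among them were in 1 fit Thbs2, in 4 Ier5, in 5 Sh2d6 and Ccl7, in 6 Rhob, in 8 Abat, Srsf5, Brd2 and Cep290, in 9 Luc7l3, Lilr4b, Zfp950 and Tmem44, and in 11 Fst and Cxcl10. With the replicate block, the differences of Cep290, Tmem44 and Fst did not pass (edgeR adjusted p = 0.0629, 0.0565 and 0.0537).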

How the results depend on the processing

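None of the named genes changed direction in any setting tried. Of 1856 values of named genes under alternatives, 1660 kept their side of the threshold, 185 lost it and 11 gained it, and of 880 values of the differences between arms 711 kept it and 169 lost it. Counts of genes moved more. Genes higher under Prdx1 siRNA numbered 234 by library size alone, 99 with only the groups compared, 1987 with GC and length offsets, 2237 with these and the replicate block, 136 without siprdx1+H2O2 replicates 1 and 2, 30 at a log2 change of at least 1 and 217 to 415 with a library left out. Genes lower numbered 539, 429 and 229 with only the groups compared, without those replicates and at a log2 change of at least 1, and 600 to 882 with a library left out. In siNC the higher count was 1125 with the offsets, 1375 with offsets and block, 47 at a log2 change of at least 1 and 194 to 423 with a library left out, and the lower count was 116 and 437 to 732 under the last 2 of these.

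The count of genes with a higher value under Prdx1 siRNA than in siNC was 4 by library size alone, 20 without the filter, 2 with only the groups compared, 91 with the offsets, 131 with offsets and block, 15 with DESeq2, 3 without the 2 replicates, 0 at a log2 difference of at least 1 and 2 to 6 with a library left out. Genes with a lower value numbered 77 without the filter, 118 with the offsets, 139 with offsets and block, 54 with DESeq2, 21 without the 2 replicates, 7 at a log2 difference of at least 1 and 23 to 48 with a library left out. The causes of these moves were not tested. With the replicate block alone, the siprdx1 libraries sharing only a number, the counts were 485 higher and 915 lower under Prdx1 siRNA, 530 and 818 in siNC, and 6 and 35 for the difference. The value of H4f16 rests on few counts in the siprdx1 libraries.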

Other observations

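Several further groups, here and in the next paragraph, were described by the same counts under Prdx1 siRNA. Of all 16432 tested genes 2.48% rose, 5.39% fell and 8978 had positive values. Of 80 cytosolic ribosomal protein genes 5 rose, 1 fell and 72 had positive values, with a median of 0.14; Rpl19 rose by 0.26 ± 0.06, and its processed pseudogenes could take reads. Rpl19 did not pass without siprdx1+H2O2 replicates 1 and 2. The ribosomal rises numbered 2 without siprdx1 replicate 1 or siprdx1+H2O2 replicate 3 and 3 without siprdx1 replicate 2, and without siprdx1 replicate 3 the falls numbered 0. In the circadian clock list 2 of 18 fell and 0 rose, led by the period gene Per3 with 26.8, 30.4 and 29.1 CPM in siprdx1+H2O2 and 45.1, 46.5 and 41.8 CPM in siprdx1, a change of -0.63 ± 0.07; without siprdx1 replicate 2 or siprdx1+H2O2 replicate 3 the list counted 1 fall. Cholesterol synthesis had 0 rises by edgeR (2 at an unadjusted p under 0.05, 0 with DESeq2) and 1 fall among 25 genes, the fall being the isoprenoid enzyme gene Fdps (-0.46 ± 0.11), which did not pass without siprdx1 replicate 1. Targets of SRF, MRTF, YAP and TEAD counted 3 rises and 1 fall among 28, and Filip1l changed by -0.33 ± 0.06. These rises numbered 0 without siprdx1 replicate 1 and 1 without siprdx1 replicate 3, siprdx1+H2O2 replicate 2 or siprdx1+H2O2 replicate 3. Of lysosome and autophagy genes 2 of 31 rose (6.45%), of glycolysis and hypoxia genes 1 of 27 (3.7%), of iron genes 1 of 20 (5%) and of replication genes 1 of 25 (4%). With so few rises, and 2.48% among all tested genes, these counts are not read as results about the lists. The lysosome rises numbered 0 without siprdx1 replicate 1 or 3 and 1 without siprdx1 replicate 2 or siprdx1+H2O2 replicate 3, the glycolysis rises numbered 0 without siprdx1 replicate 1 and 2 without siprdx1 replicate 2, and the iron rises 2 without siprdx1 replicate 2 or siprdx1+H2O2 replicate 2. The single replication rise did not pass without siprdx1 replicate 2 or siprdx1+H2O2 replicate 3. Arl4d, an ARF-like GTPase gene and the one of the 10 named largest rises that is on no histone or early gene list, had 9.68, 10.1 and 11.2 CPM in siprdx1+H2O2 and 3.72, 3.72 and 3.44 CPM in siprdx1, a rise of 1.51 ± 0.11, beside 1.05 ± 0.10 in siNC.

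The peritubular and smooth muscle list had 1 fall among 10, Sertoli markers 1 rise among 9, and endothelial markers 1 rise (Cdh5, 0.27 ± 0.06) and 1 fall (Vwf, -0.61 ± 0.14) among 7. Cdh5 did not pass without siprdx1 replicate 3, nor Vwf without siprdx1 replicate 2. The smooth muscle fall did not pass without siprdx1 replicate 2 or siprdx1+H2O2 replicate 1 or 3, nor the Sertoli rise without siprdx1 replicate 1 or 3 or siprdx1+H2O2 replicate 1 or 3. Of 14 germ cell markers 4 were tested and 0 passed in either direction by edgeR or DESeq2 (1 higher at an unadjusted p under 0.05), and of 7 erythrocyte markers 0 were expressed enough to be tested.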
